A study of Mus musculus with 2 samples.

Results

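The intracellular fibroblast growth factor homologs Fgf11, Fgf12, Fgf13 and Fgf14 are a branch of the fibroblast growth factor family whose proteins are not secreted. They share the core fold of the family but stay inside the cell. In neurons they bind the intracellular tail of voltage-gated sodium channels, shift the voltage at which these channels inactivate and gather with them at the axon initial segment. Fgf12, Fgf13 and Fgf14 are transcribed from alternative first exons that give each protein different N termini, followed by the same core exons. Variants of human FGF14 cause a hereditary spinocerebellar ataxia and variants of FGF12 cause early epilepsy. N6-methyladenosine (m6A) in mRNA is placed mostly on adenosines in the DRACH context (A, G or T, then A or G, then the methylated A, then C, then A, C or T). It is known to be dense around stop codons and in long exons, and sparse in short internal exons.

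The data were 2 lists of m6A sites found by GLORI, in which glyoxal and nitrite convert unmethylated adenosine so that it is read as G while m6A is still read as A. One list came from the cerebellum and the other from the cerebrum of a female newborn mouse (P0) of the F1r cross, which had a C57BL/6J mother and a PWK/PhJ father. Both libraries were made from poly(A)+ RNA. Every site was read in tissue of mixed cells, each with 1 C57 and 1 PWK genome because of the cross. With 1 library per tissue there was no replicate check, and no test between the tissues was made. The lists give a position and strand for each site without its methylation level or the reads behind it, so the depth is unknown. Lack of methylation, lack of expression and thin coverage all leave an adenosine off a list, and they cannot be told apart here, nor can fewer cells that express a gene and less RNA per cell.

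The 4 genes were chosen by family, with the counts of listed sites in these 2 libraries already known, so those counts are given below as a description and without a test. Their sites were all listed positions inside the GENCODE M21 interval of each gene (GRCm38, the assembly that mm10 names) on the strand of the gene. There were 197 such sites among 79355 in the cerebellum list and 407 among 188295 in the cerebrum list, at 558 positions in all. The 95% Wilson intervals printed with shares treat sites or adenosines as independent and cover counting error only. The cerebrum list was deposited under a name that also carries the study's abbreviation for the cerebellum, and each tissue was taken from the characteristics of its sample. The tissue labels were looked at through the sites of marker genes. Of 10 hindbrain genes, 7 had a listed site in the cerebellum library and 5 in the cerebrum library, while of 10 forebrain genes 5 and 10 had one.

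The sites that recurred best in these genes lay just downstream of the stop codon, and their sequences are shown first because both libraries listed them. For each gene up to 6 exonic DRACH sites found in both libraries are given, in order of distance from the stop codon. The 21-base windows are written 5′ to 3′ on the transcribed strand of GRCm38, with the 5 bases centred on the methylated adenosine in capitals. All 4 genes lie on the minus strand.
Fgf12, 12 nt after the stop codon, chr16:28162395-28162415: ctagccaaGAACTcttccgtt
Fgf12, 123 nt after, chr16:28162284-28162304: gcatcacaGGACTtagtagct
Fgf12, 168 nt after, chr16:28162239-28162259: tttgtgtaGGACAagaaattt
Fgf12, 266 nt after, chr16:28162141-28162161: aataaattGGACTccacaaac
Fgf12, 275 nt after, chr16:28162132-28162152: gactccacAAACAttaaattt
Fgf12, 5′ UTR, chr16:28445563-28445583: gttattttGGACAtcttttcc
Fgf13, 225 nt after, chrX:59063298-59063318: ttatcaatGAACTaaacctgg
Fgf13, 243 nt after, chrX:59063280-59063300: tggaagaaGGACTgccaaatt
Fgf14, 21 nt after, chr14:123980315-123980335: aggtgttcTGACTttcttgtc
Fgf14, 64 nt after, chr14:123980272-123980292: tccttactAGACAttcctgct
Fgf14, 130 nt after, chr14:123980206-123980226: gctgtctcAGACCtccttctt
Fgf14, 194 nt after, chr14:123980142-123980162: agacacctGGACAaaccagct
Fgf14, 213 nt after, chr14:123980123-123980143: ctaaactcAGACCatggaatg
Fgf14, 265 nt after, chr14:123980071-123980091: cttttctgTGACTgtgacact
Downstream of the stop codon Fgf14 had 2 further shared DRACH sites, at 271 and 287 nt, and Fgf13 had none beyond the 2 shown. The other shared exonic DRACH sites of Fgf12 and Fgf14 lay in first exons and are described with them. Fgf11 had no listed site of any kind.

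Site counts differed widely among the paralogues. Fgf14 (ENSMUSG00000025551.13, chr14:123977907-124677127, spanning 699.2 kb) held 141 sites in the cerebellum list and 251 in the cerebrum list, of which 32 were shared. Fgf12 (ENSMUSG00000022523.10, chr16:28160098-28753068, 593.0 kb) held 43 and 89 sites, with 9 shared. The X-linked Fgf13 (ENSMUSG00000031137.17, chrX:59062145-59568071, 505.9 kb) held 13 and 67 sites, with 5 shared. Fgf11 (ENSMUSG00000042826.13, chr11:69796068-69801857, 5.8 kb) held 0 and 0. By the number of sites in the gene interval, Fgf14 ranked 22 in the cerebellum and 36 in the cerebrum among 21853 coding genes. Of these coding genes, 41.1% had a listed site in the cerebellum and 57.4% in the cerebrum, so a gene without any, such as Fgf11, was common.

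**Figure D1:**
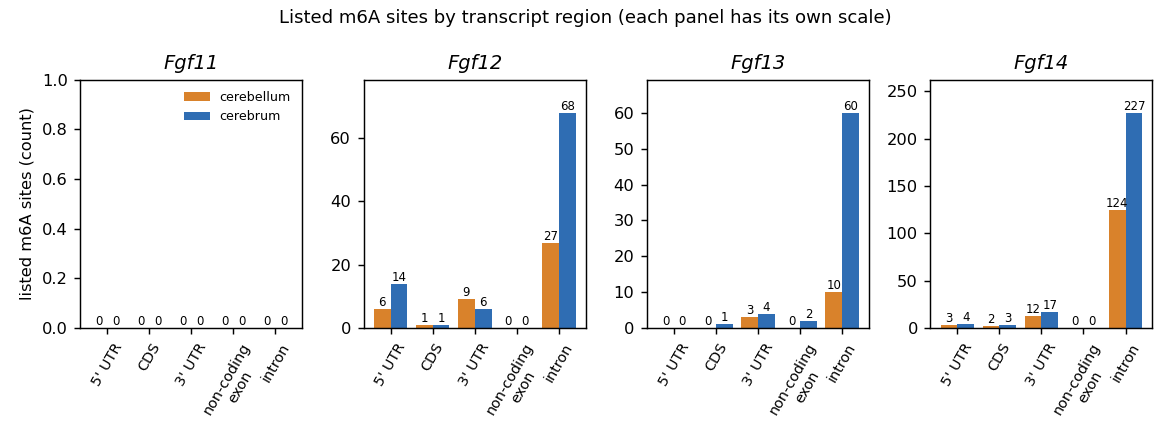
Bars give the number of listed m6A sites (vertical axis, count) by transcript region for each gene, with cerebellum in orange and cerebrum in blue, and each panel has its own scale. Introns hold most sites of Fgf12, Fgf13 and Fgf14, up to 227 in Fgf14 in the cerebrum, and the panel of Fgf11 is empty.

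Most of these sites were intronic, and the intronic and exonic sites differed in motif and in how often both libraries listed them. In the cerebellum list 161 of 197 sites were intronic (81.7%), and in the cerebrum list 355 of 407 were (87.2%). Of the exonic sites, 26 of 36 for the cerebellum (72.2%, interval 56.0 to 84.2) and 27 of 52 for the cerebrum (51.9%, 38.7 to 64.9) were DRACH sites. Of the intronic sites, 16 of 161 (9.94%, 6.21 to 15.5) and 50 of 355 (14.1%, 10.8 to 18.1) were. Intronic shares below those of all listed sites (62.1% and 46.8%) were general, at 19.6% and 15.8% in coding genes spanning 300 kb or more. The interval of the 4 genes lay below this long-gene share for the cerebellum and included it for the cerebrum. Exonic DRACH sites recurred most often. The libraries shared 21 of them, 80.8% of the 26 of the cerebellum list and 77.8% of the 27 of the cerebrum list. Of the intronic sites outside DRACH they shared 13, which is 8.97% of 145 and 4.26% of 305. How often intronic sites of other long genes were shared was not computed, so low sharing cannot be called particular to these genes. Over all listed sites of the series, 60.8% of the cerebellum list and 25.6% of the cerebrum list were shared. Over all coding genes, 83.6% of the exonic DRACH sites of the cerebellum list were also in the cerebrum list, and 48.9% the other way round.

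The listed sites were also measured against the adenosines that could have carried one. The exons of the coding transcripts held 49 DRACH adenosines in Fgf11, 115 in Fgf12, 65 in Fgf13 and 81 in Fgf14. In Fgf14, 12 were listed for the cerebellum (14.8%, 8.68 to 24.1) and 11 for the cerebrum (13.6%, 7.76 to 22.7). In Fgf12, 12 (10.4%, 6.07 to 17.4) and 14 (12.2%, 7.39 to 19.4) were listed. In Fgf13, 2 were listed in each library (3.08%, 0.848 to 10.5), and in Fgf11 0 were (interval up to 7.27%). The intervals of Fgf12, Fgf13 and Fgf14 overlap in both libraries. Taken over the exons of all coding genes, 2.89% of DRACH adenosines were listed in the cerebellum and 4.94% in the cerebrum. Among coding genes with at least 1 listed exonic DRACH site, to which Fgf11 does not belong, the shares were 6.12% and 8.59%. Over the 4 genes together, 8.39% (5.79 to 12.0) and 8.71% (6.05 to 12.4) were listed.

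In the first 400 nt after the stop codon, the interval of Fgf14 lay above that of Fgf13 in both libraries, while all other pairs of genes overlapped. On the longest coding isoform of each gene, the first 400 nt after the stop codon held 12 DRACH adenosines in Fgf14, of which 9 were listed for the cerebellum (75%, 46.8 to 91.1) and 8 for the cerebrum (66.7%, 39.1 to 86.2). In Fgf12, 6 of 12 were listed in each library (50.0%, 25.4 to 74.6). In Fgf13, 2 of 15 were listed in each (13.3%, 3.74 to 37.9). In Fgf11 none of 4 was listed in either library (interval up to 49%). The same window held a listed site at 18.1% of DRACH adenosines in the cerebellum and 23.5% in the cerebrum over all coding genes with a listed exonic DRACH site. Among the 2306 such genes of the cerebellum with 10 or more DRACH adenosines in this window, 16 had a larger share than Fgf14, 121 a larger one than Fgf12 and 1134 a larger one than Fgf13. Among 2833 genes of the cerebrum the corresponding counts were 118, 327 and 1677. These shares and ranks were computed at 400 nt only, a width chosen with earlier results of these data known. A 200-nt window would hold fewer adenosines, so Fgf14 and Fgf13 need not stay apart there, and this was not computed.

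**Figure D2:**
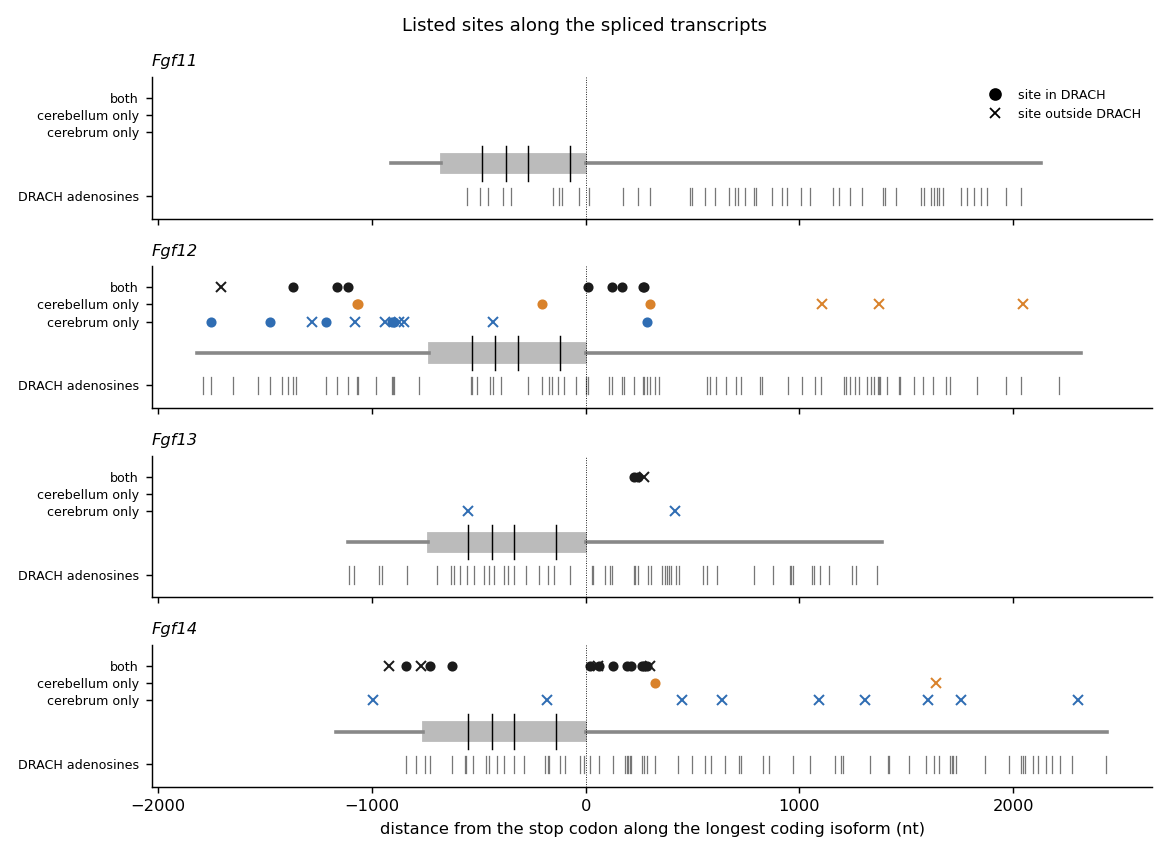
Each panel is the longest coding isoform of a gene, with the distance from the stop codon in nt on the horizontal axis, the coding sequence as a grey box, exon junctions as black lines and every DRACH adenosine as a grey tick. Circles are listed sites in DRACH and crosses are listed sites outside it, in rows for both libraries, cerebellum only and cerebrum only. The outermost DRACH sites downstream of the stop codon lie at 302 nt in Fgf12, 243 nt in Fgf13 and 324 nt in Fgf14.

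Further downstream, the remaining DRACH adenosines of the GENCODE 3′ UTRs were not listed. In Fgf12 the last listed DRACH site lay 302 nt after the stop codon in the cerebellum and 287 nt after it in the cerebrum, in a 3′ UTR of 2319 nt. In Fgf14 it lay at 324 and 287 nt in a 3′ UTR of 2439 nt. In Fgf13 it lay at 243 nt in both, in a 3′ UTR of 1388 nt. Beyond 400 nt, 0 of 35 DRACH adenosines in Fgf12, 0 of 17 in Fgf13, 0 of 37 in Fgf14 and 0 of 36 in Fgf11 were listed in either library. Over all coding genes with a listed exonic DRACH site, 5.23% and 7.43% of the DRACH adenosines beyond 400 nt were listed in the cerebellum and the cerebrum. The intervals of the single genes, up to 9.89%, 18.4%, 9.41% and 9.64% in the order above, include these shares. The interval of Fgf12, Fgf13 and Fgf14 together reached 4.14% in each library. Sites were not absent from this stretch. Outside DRACH, the cerebellum list had 3 sites between 1106 and 2044 nt in Fgf12 and 1 at 1639 nt in Fgf14. The cerebrum list had 7 sites between 449 and 2304 nt in Fgf14 and 1 at 417 nt in Fgf13. None of these sites beyond 400 nt was shared by the libraries. RefSeq extends the genes past their GENCODE 3′ ends, and there DRACH sites were listed again, 1 per library in the 3466 nt added to Fgf14 and 1 in the cerebrum list in the 2315 nt added to Fgf12, none of them shared.

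The hexamers AATAAA and ATTAAA, the most common poly(A) signals, were searched on the transcribed strand of these 3′ UTRs. In Fgf12, AATAAA started 104 and 256 nt after the stop codon and not again until 2080 nt, and ATTAAA started at 277 nt. In Fgf13, AATAAA started at 285 nt and ATTAAA at 166 and 348 nt. In Fgf14 the nearest copies lay at 963 nt for AATAAA and 647 nt for ATTAAA, and in Fgf11 at 1513 and 693 nt. Of 14872 longest isoforms with a 3′ UTR of 400 nt or more, 22.2% held AATAAA and 16.1% held ATTAAA in the first 400 nt. A link between these hexamers and the place of the last listed DRACH sites was not tested. Transcript ends were not measured in these lists.

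The coding exons shared by the paralogues carried few listed DRACH sites, at a share near that of internal exons in general. Exons 2, 3 and 4 are 111, 104 and 199 nt long in each of the 4 genes, and the longest proteins translated from the gene models were between 58.6% (Fgf11 and Fgf13) and 68.6% (Fgf12 and Fgf13) identical over aligned residues. These exons held 37 DRACH adenosines in the 4 genes, of which the cerebellum list held 1 (2.70%, 0.479 to 13.8) and the cerebrum list 0 (interval up to 9.41%). Internal exons of all coding genes with a listed exonic DRACH site had 3.78% of their DRACH adenosines listed for the cerebellum and 5.24% for the cerebrum. Because the exon lengths are equal, positions can be compared directly. Of the 21 exon positions with a DRACH adenosine in any of the genes, 3 had it in 3 genes, 10 in 2 genes and 8 in a single gene, and none had it in all 4.

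The single listed DRACH site of these exons was base 114 of exon 4 of Fgf12, in the cerebellum. The same base of exon 4 is shown for each paralogue, with the 5 bases around it in capitals, because the other genes have no DRACH there.
Fgf11, chr11:69798639-69798659: ggtacctaGGCCTggacaagg
Fgf12, chr16:28189509-28189529: ggtttctaGGACTcaataaag
Fgf13, chrX:59067476-59067496: ggtatctaGGTCTgaacaaag
Fgf14, chr14:123983844-123983864: ggtttttgGGATTaaataagg
The remaining listed sites of exons 2 to 4 were outside DRACH and in the cerebrum library alone. They were base 98 of exon 2 in Fgf12 (GAAAA), base 1 of exon 2 in Fgf13 (AGAGC) and base 155 of exon 4 in Fgf14 (AAAGA). The Fgf13 site was the base next to the splice junction. No 2 paralogues had a listed coding site at the same or a neighbouring position.

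Listed sites of first exons were those of Fgf12 and Fgf14. In Fgf12 the listed sites lay in 1 of the alternative first exons, the 1285-nt exon at chr16:28444993-28446277, most of which is 5′ UTR. It begins 306.8 kb inside the gene and opens the isoform of 243 residues. Of its 20 DRACH adenosines, 5 were listed for the cerebellum (25%, 11.2 to 46.9) and 8 for the cerebrum (40.0%, 21.9 to 61.3). The shared ones were 3 DRACH sites, the GGACA shown above, a second GGACA 434 nt upstream of the start codon and a GGACC 640 nt upstream. A CAACT outside DRACH was shared as well. The other first exon of Fgf12, at the 5′ end of the gene, which opens the isoform of 181 residues, held 2 DRACH adenosines and no listed site.

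In Fgf14 the sites likewise lay in 1 of the first exons. The 618-nt exon at the 5′ end of the gene (chr14:124676510-124677127), which opens the isoform of 252 residues, had 5 listed sites for the cerebellum and 6 for the cerebrum. Of its 7 DRACH adenosines, 3 were listed in each library (42.9%, 15.8 to 75), and these were the same 3. The exon 484.2 kb further on, which opens the isoform of 247 residues, held 11 DRACH adenosines and no listed site. The pair of shared DRACH sites in the coding part of the 5′ exon is shown here because these were the only coding DRACH sites of the 4 genes found in both libraries. They lie 31 and 134 nt into the coding sequence, and they were selected for printing after their values were seen.
Fgf14, coding base 31, chr14:124676677-124676697: cttcaggaGAACTgatttcaa
Fgf14, coding base 134, chr14:124676574-124676594: tttctttgGAACAttttcagc
The 3 annotated first exons of coding isoforms of Fgf13 held 10, 3 and 1 DRACH adenosines and no listed site, and the first exon of Fgf11 held 2 and no site. First exons of all coding genes with a listed exonic DRACH site had 4.11% of their DRACH adenosines listed in the cerebellum and 6.18% in the cerebrum. The interval of the first exon of Fgf13 with 10 DRACH adenosines, 0 to 27.8%, includes these shares. Which of the alternative transcripts were expressed was not measured.

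**Figure D3:**
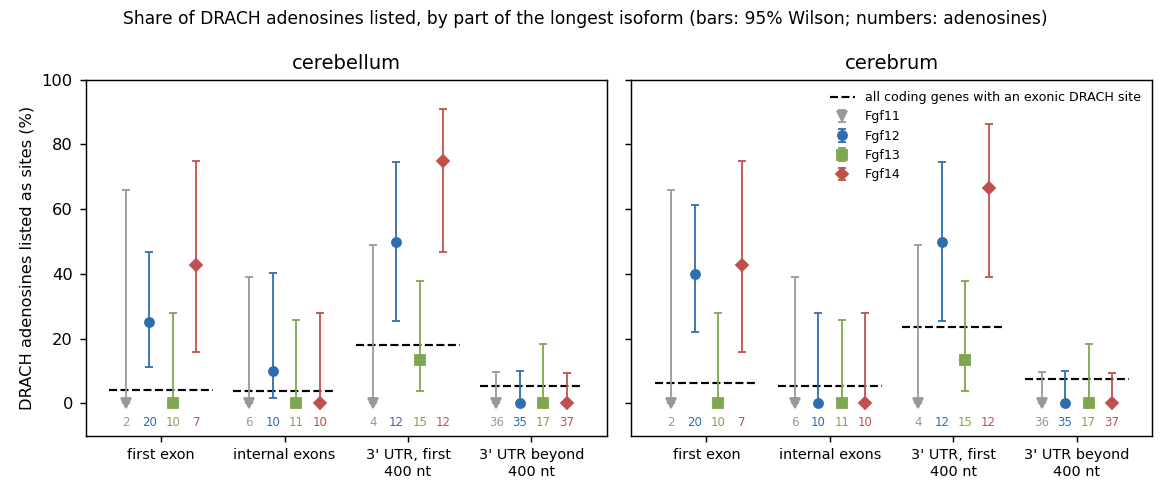
Symbols give the share of DRACH adenosines listed as sites (vertical axis, %) in 4 parts of the longest coding isoform, with 95% Wilson intervals as bars and the number of adenosines under each symbol. Dashed lines are all coding genes with a listed exonic DRACH site. Fgf14 is highest in the first 400 nt of the 3′ UTR, at 75% in the cerebellum and 66.7% in the cerebrum, and every gene is at 0 beyond 400 nt.

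Exonic DRACH sites found in a single library were few. In Fgf12 the cerebellum alone listed 2 adenosines of the 5′ UTR (TGACC and AAACT, 5 nt apart), the exon 4 site and a TAACA 302 nt after the stop codon. The cerebrum alone listed 5 of the 5′ UTR and a TAACT 287 nt after the stop codon. In Fgf14 the only one was a TGACA 324 nt after the stop codon, in the cerebellum, and Fgf13 had none. Those of the 3′ UTR are shown because they are the outermost DRACH sites of each list.
Fgf12, 287 nt after, cerebrum, chr16:28162120-28162140: attaaattTAACTgtgttgtt
Fgf12, 302 nt after, cerebellum, chr16:28162105-28162125: gttgttatTAACAgagggcta
Fgf14, 324 nt after, cerebellum, chr14:123980012-123980032: ttgcctgcTGACAgctaccca
By region, the 3′ UTR held 66.7% (50.3 to 79.8) of the exonic sites on coding isoforms for the cerebellum and 54.0% (40.4 to 67.0) for the cerebrum. The 5′ UTR held 25% (13.8 to 41.1) and 36.0% (24.1 to 49.9), and the coding sequence 8.33% (2.87 to 21.8) and 10% (4.35 to 21.4). Within 200 nt of the stop codon on either side lay 22.2% (11.7 to 38.1) and 18.0% (9.77 to 30.8), and within 400 nt 58.3% and 40.0%.

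The number of exonic DRACH sites was nearly the same in both libraries, whereas the number of intronic sites was not. Over the 4 genes the cerebrum list had 1.04 times the exonic DRACH sites of the cerebellum list (exact interval 0.583 to 1.85, counting error only). The ratio over all coding genes, 1.71, lies inside this interval. Intronic sites were 2.52 times as many in the cerebrum for Fgf12 (1.59 to 4.09), 6 times as many for Fgf13 (3.05 to 13.1) and 1.83 times as many for Fgf14 (1.46 to 2.30). For the 565 coding genes of 300 kb or more the ratio was 3.06, and for all listed sites 2.37. With 1 library of unknown depth per tissue, tissue and library cannot be told apart.

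Intronic sites were dense in Fgf14. It held 17.8 intronic sites per 100 kb of intron for the cerebellum and 32.7 for the cerebrum. Of the 565 coding genes spanning 300 kb or more, 98.1% and 96.1% had a lower density. Fgf12 held 4.60 and 11.6 per 100 kb, above 83.9% and 76.8% of these genes, and Fgf13 held 1.99 and 12.0, above 66.4% and 77.5%. The medians of the long genes were 0.889 and 3.16. These comparisons include long genes without any intronic site, 159 of the 565 for the cerebellum and 95 for the cerebrum.

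**Figure D4:**
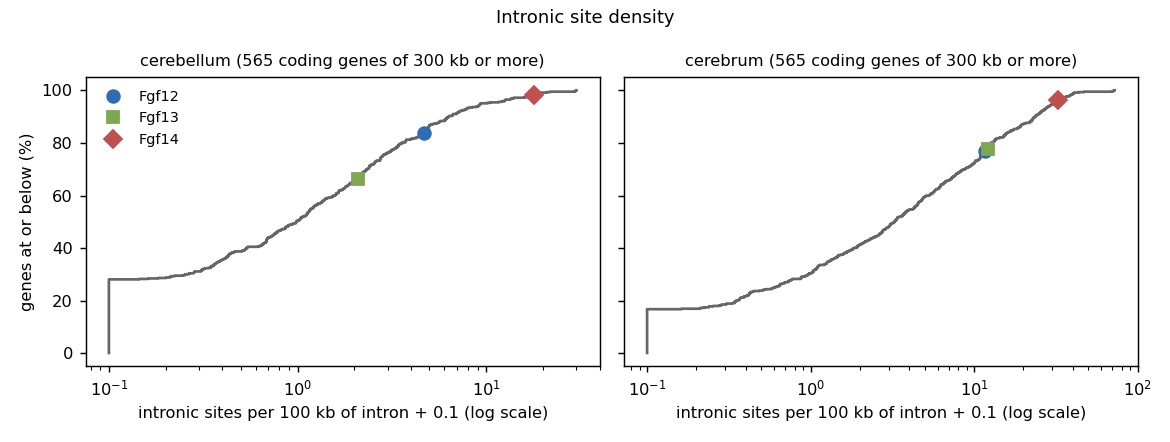
Curves give the share of coding genes of 300 kb or more (vertical axis, %) at or below a density of intronic sites per 100 kb of intron, with 0.1 added, on a logarithmic horizontal axis. Symbols mark Fgf12, Fgf13 and Fgf14, and Fgf14 lies near the top of both curves at 17.8 and 32.7 sites per 100 kb.

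In Fgf14 and Fgf13 most intronic sites lay in the longest stretch, near the 5′ end, while those of Fgf12 were spread over several stretches. In Fgf14 the 483.6 kb between both first exons held 109 of 124 intronic sites of the cerebellum list and 191 of 227 of the cerebrum list, a density of 22.5 and 39.5 per 100 kb. The 148.5 kb between exons 3 and 4 held 13 and 32 sites, 8.75 and 21.5 per 100 kb. In Fgf13, 10 of 10 and 56 of 60 intronic sites lay in a 315.8-kb stretch near the 5′ end, and no site lay in the 58.3 kb between exons 3 and 4. In Fgf12 the 187.9 kb that follow the 5′ first exon held 15 of 27 and 27 of 68 sites, 7.98 and 14.4 per 100 kb. The 81.2-kb stretch downstream of exon 3 had the highest density of the long Fgf12 stretches in the cerebrum, 28.3 per 100 kb with 23 sites, and held 6 sites in the cerebellum.

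**Figure D5:**
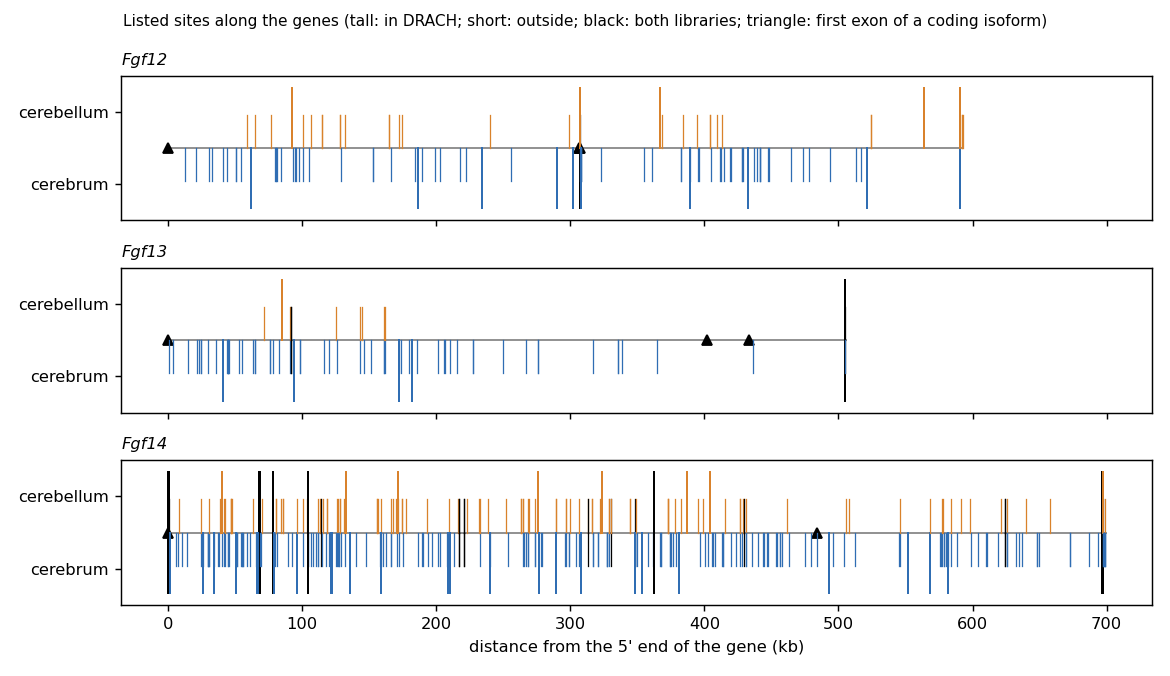
Each panel is a gene, with the distance from its 5′ end in kb on the horizontal axis, cerebellum sites drawn up in orange and cerebrum sites drawn down in blue. Tall lines are DRACH sites, short lines are sites outside DRACH, black lines were in both lists and triangles mark first exons of coding isoforms. Fgf14 is filled along most of its length, with 124 and 227 intronic sites, while Fgf13 is nearly empty in its 3′ part up to the sites at its end.

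The intronic sites that both libraries listed were of 2 kinds. In Fgf14, 6 were DRACH sites, and 5 of these 6 lay in sequence that the reference genome marks as repeats. Such sequence makes up 42.8% of the Fgf14 interval, and 27.3% and 26.2% of the intronic sites of the 4 genes lay in it. Of the 6, 3 came from 1 locus, inside Gm49069, a gene annotated as still awaiting experimental evidence, on the same strand at chr14:124608482-124612492. This 4.0-kb gene held 3 sites in the cerebellum list and 12 in the cerebrum list, 3 and 8 of them in DRACH, and reads from it cannot be told apart from reads of the Fgf14 intron. Fgf12 had no shared intronic site.

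The other kind was outside DRACH, with the adenosine followed by T and C. Of the 13 shared intronic sites outside DRACH, 12 were at ATC, and several stood in pairs 6 nt apart. Over the 4 genes, ATC accounted for 49 of 145 intronic sites outside DRACH for the cerebellum (33.8%, 26.6 to 41.8) and 58 of 305 for the cerebrum (19%, 15.0 to 23.8). In the long coding genes it accounted for 23.3% and 16.5%. There were 18 pairs exactly 6 nt apart in the cerebellum and 11 in the cerebrum, against 0 and 0 pairs at 5 nt and 0 and 1 at 7 nt. The long coding genes showed the same spacing, with 460 and 775 pairs at 6 nt, 10 and 36 at 5 nt and 6 and 48 at 7 nt. One shared site in Gm49069 and the shared pairs of Fgf13 and Fgf14 nearest to the 5′ end of each gene are shown as examples, selected after their values were seen.
Fgf14, intron, in Gm49069, chr14:124609648-124609668: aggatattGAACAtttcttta
Fgf13, intron, upstream site of a pair, chrX:59476449-59476469: tcctttctTGATCactatcat
Fgf13, intron, downstream site, chrX:59476443-59476463: cttgatcaCTATCattccatt
Fgf14, intron, upstream site of a pair, chr14:124459956-124459976: tcctcagaACATCttcatcat
Fgf14, intron, downstream site, chr14:124459950-124459970: gaacatctTCATCatcactgt
The windows of a pair overlap and show the same stretch shifted by 6 bases. No value in the lists says how many reads lie behind such a site.

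The proteins that work with these homologs were looked at through their own sites. Of 15 partner genes, which include the sodium channels, their beta subunits and the scaffolds of the axon initial segment, 11 had an exonic DRACH site in the cerebellum and 12 in the cerebrum, while 33.9% and 43.6% of all coding genes had one. Ank3, which encodes the ankyrin that organises the axon initial segment, had the most, with 70 and 81, followed by the related Ank2 with 54 and 60. Of 18 secreted fibroblast growth factors, 0 had an exonic DRACH site in the cerebellum and 2 in the cerebrum, Fgf9 with 3 sites and Fgf10 with 2. Of 5 fibroblast growth factor receptor genes, 2 and 3 had one. Fgfr2 had 0 in the cerebellum and 10 in the cerebrum, and Fgfr1 had 2 and 5.

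Genes with the most similar counts were found by the Euclidean distance over log2(count + 1) of the sites in 5′ UTR, coding sequence, 3′ UTR and intron of each library. For Fgf12 these were Il1rapl1 at a distance of 2.37 and Fam19a2 at 2.43. For Fgf13 they were Ssbp2 at 0.81 and Iqschfp at 0.84, and for Fgf14 Cadm2 at 1.51 and Ntm at 2.04. Cadm2 held 160 and 388 intronic sites in 955.7 kb of intron, and 16 and 20 sites in its 3′ UTR. For Fgf11, 9465 genes shared the count of 0 throughout, so no gene was closest.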

How the data were processed

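GLORI site lists of the cerebellum and the cerebrum, with 1 library each from a newborn F1r female, were used. The authors aligned reads to mm10 and to a PWK version of it, ran GLORI-tools on each alignment and merged the calls, retaining those above 0.1 in methylation rate and above 8 in read count. The deposited unit is another kind of value than a level: a genomic position of 1 nt per site. No rate or count is in these lists, so depth is unknown and no difference in methylation was computed. Both filters shape which sites are listed.

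Sites were placed on GENCODE M21 gene models, which is not the release named by the authors, and on GRCm38. An exonic site was assigned to the longest complete coding isoform that covers it, and motifs were read from the genome. DRACH adenosines were counted on the exons of all 21853 coding genes. Distances from the stop codon count from its last base. Proteins were translated from the coding sequences and aligned with MAFFT 7.526. Other tools were Python 3.11.15, numpy 2.4.6, scipy 1.17.1, pysam 0.24.0, samtools 1.23.1 and matplotlib 3.10.9. Placement of sites and shares were tested on simulated sites.

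The genes, lists, windows and alternatives were chosen with earlier results of these data known. All 4 genes were described, each list was counted and its 2 genes with the most exonic DRACH sites were named. Sequences were shown for up to 6 shared exonic DRACH sites per gene in order of distance from the stop codon, for up to 3 found in a single library and for up to 3 shared intronic sites. The coding sites of the Fgf14 first exon were printed in addition, after their values were seen. The alternatives were exons only, DRACH or RRACH sites only, other isoforms and windows, matches within 1 nt and sites within 10 nt of another left out. Gene intervals of RefSeq, Fgf11 left out and Gm49069 left out were added after seeing the data.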

Additional observations from a re-analysis of the deposited data

How the results depend on the processing

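Of 42 recomputed values over the 4 genes, 27 stayed within 1.5 times the reported count or inside its counting interval, and 15 moved beyond it. Restricting the count to exons of coding transcripts left 36 of 197 cerebellum sites and 52 of 407 in the cerebrum list, and DRACH sites alone numbered 42 and 77, since most sites are intronic and outside DRACH. On exonic sites alone, 75% of the cerebellum list was found in the other one, and 51.9% of the cerebrum list. Over all sites of the 4 genes these shares were 23.4% and 11.3%, and over all listed sites of the series 60.8% and 25.6%. The DRACH share of exonic sites was 72.2% and 51.9% (21.3% and 18.9% over all sites of the 4 genes). RRACH in place of DRACH gave 15.7% and 14.7%. The stop codon window of 400 nt in place of 200 nt raised the share of exonic sites from 22.2% to 58.3% and from 18.0% to 40.0%. Without sites within 10 nt of another, intronic density was 6.66 per 100 kb in place of 9.01 for the cerebellum, and 17.7 in place of 19.9 for the cerebrum. Sites outside DRACH alone gave 17.1 in the cerebrum. The isoform choice moved no region share. No paired analysis was possible because each tissue has 1 library. Unknown depth limits every absence.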

Other observations

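Some listed sites lay just outside the intervals used above. RefSeq ends Fgf14 further downstream than GENCODE M21, and that stretch of 3466 nt held 2 cerebellum and 5 cerebrum sites on the same strand, none of them shared and 1 per library in DRACH. Its 559 additional nt at the 5′ end held 1 and 2 sites, 1 of them shared, and all were DRACH sites. The 2315 additional nt at the 3′ end of Fgf12 held 0 and 1, the latter in DRACH. The 17501 additional nt upstream of Fgf13 and 1087 upstream of Fgf11 held none. On the antisense strand, the 4 gene intervals held no cerebellum site and 1 cerebrum site, in Fgf12. Of the 407 cerebrum sites, 2 lay on a base that is not A in GRCm38, while all 197 cerebellum sites lay on A.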
